A study of Mus musculus with 2 samples.

Results

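The genes described here encode the factors that start and extend protein synthesis and those that make ribosomes. They were taken by symbol from the table of EpA cells: every gene whose symbol begins with Eif, Eef, Polr1 or Utp, every Nop, Nol or Rrp gene with a number, and Ncl, Npm1, Fbl, Dkc1 and Rrs1. The rule found 107 of the 17189 genes in that table. It uses names alone, so a few members have other or additional roles. Nol3 is an inhibitor of cell death, and Eif4a3 belongs to the exon junction complex.

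A cell sets its rate of protein synthesis mainly at initiation. The eIF4 factors bind the cap of the mRNA and unwind its leader, eIF3 and eIF2 bring the small ribosomal subunit with the initiator tRNA, and the eEF1 and eEF2 factors then carry tRNAs to the ribosome and move it along. Ribosomes themselves begin in the nucleolus, where RNA polymerase I transcribes the precursor rRNA and Utp, Nop and Nol proteins cut, modify and fold it. Both steps are commonly raised when quiescent cells grow or divide, and the ependymal cells of the intact adult cord divide rarely.

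EpA cells are ependymal cells, the ciliated lining of the central canal in the spinal cord. The study took adult C57BL/6J mice of at least 12 weeks carrying a heterozygous Troy-CreERT2 allele and a Rosa26-tdTomato reporter, so that cells that had used the Troy gene carried the red protein by which they were sorted. One library came from uninjured cord and 1 from cord 3 days after injury, an incision of the dorsal funiculus, each from a 5 mm segment. Both libraries carry the Cre driver and the reporter, and how many animals each holds is not stated in the labels. With 1 library per condition no test between conditions was possible. Every bracketed range is a 95% interval for counting error only.

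The authors' EpA set held 555 uninjured and 1004 injured cells with 7689179 and 25296289 unique molecular identifiers (UMIs), the counts of captured transcripts. The median cell held 11387 UMIs in the uninjured library and 20158.5 in the injured library. Levels are given as counts scaled to 1000000 UMIs (CPM) of all EpA cells of a library. The 7 fixed ependymal markers summed to 8085 CPM in the uninjured and 2138 CPM in the injured set, and all 7 were detected in both. Of the other types, 8 endothelial markers summed to 18.2 and 17.0 CPM, 8 microglial markers to 48.3 and 43.1 CPM and 7 fibroblast markers to 34.9 and 43.7 CPM. Astrocyte markers were the highest, with 665 and 785 CPM over 6 genes, none at 0. Neuron markers stood at 157 and 647 CPM, oligodendrocyte markers at 151 and 130 CPM, pericyte markers at 28.6 and 130 CPM and oligodendrocyte precursor markers at 0.390 and 31.0 CPM, and their part in the results was not tested. The libraries shared 18 barcode sequences, which were kept apart.

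Transcripts of the 107 genes took a larger share of the injured EpA cells. Summed over the genes, the uninjured EpA cells stood at 12287 CPM and the injured ones at 20415 CPM, which is 1.66-fold (1.65 to 1.67). The 10 elongation factor genes held 2834 and 7842 CPM of these sums, so the summed ratio rests in large part on them. They enter every summed level below. Of the 103 members with a mean of at least 5 CPM, 84 had a log2 ratio of injured over uninjured above 0. Their median log2 ratio was 0.62 with quartiles of 0.12 and 0.93, against a median of -0.03 over all 10527 genes at that level. The interval lay above 0 for 73 of the 103 members, below 0 for 10 and across 0 for 20. CPM are shares of a library, and per cell without scaling the median of all genes shifts by 0.86 on the log2 scale and 101 of the 103 members lie above 0. Directions below are on the CPM scale. The other 2 were Eif4a2, at -0.24 per cell, and Nol4, a gene known from neurons, at -0.34 with 116 and 166 UMIs.

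Members were called by size alone, at 50 CPM or more in 1 library or both and a 2-fold or larger ratio. Of 57 members at that level, 12 were higher in injured EpA cells, and 10.8% of all 3706 genes at that level were called higher. One member was lower, and 13.8% of all genes at that level were called lower. The 12 were Eif4ebp1, Eif4a1, Eef2, Eef1a1, Eef1b2, Eif5a, Eif4e2, Npm1, Eif3e, Nop58, Eif4g1 and Eif3l, and for 8 of them the whole interval lay above 2-fold. The lower member was Eif4a2. The ribosomal protein genes, which are no members, had a median log2 ratio of 0.995 over 82 genes, with 40 of 81 called higher. The calls of members depended on the cells and the scale: weighting every cell alike left 4 of the 12, and cells matched for depth left none, as set out under the cell sets.

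**Figure D1:**
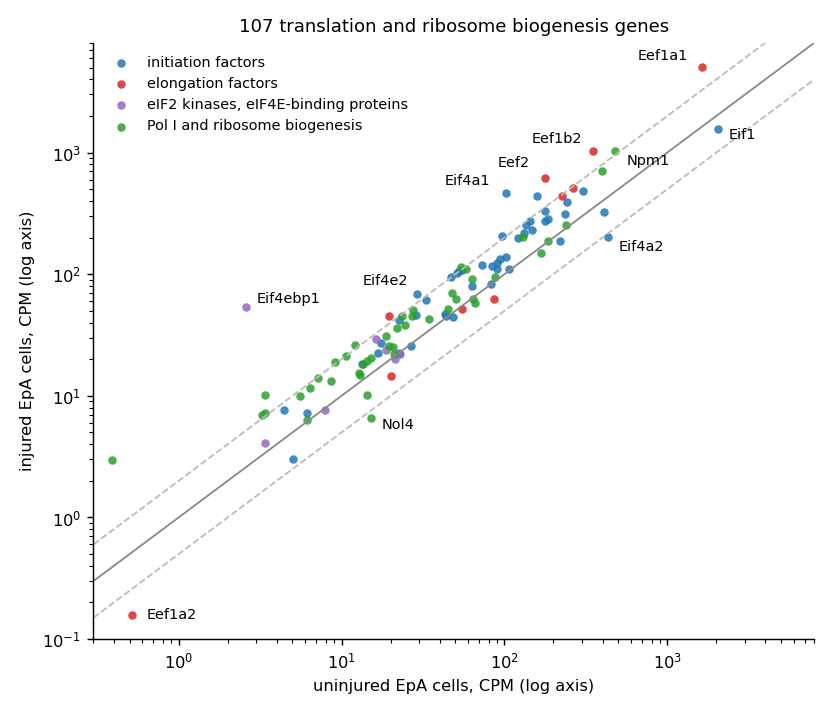
Level of each of the 107 genes in uninjured (x axis) and injured (y axis) EpA cells, in CPM on log axes, coloured by role; the solid line marks equal levels and the dashed lines a 2-fold ratio. Most points lie between the solid and the upper dashed line, Eif4ebp1 stands far above and Eif4a2 is the only gene above 50 CPM under the lower dashed line.

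Promoter sequences are shown first, because 4 of the genes called higher carry the same 6-base motif there. RefSeq windows from 250 bases before to 50 bases after the start of transcription (build GRCm38.p6) were found for 85 of the 107 members, in 105 windows. They were searched for CACGTG, the canonical E-box bound by basic helix-loop-helix factors. The motif is its own reverse complement, so 1 search covers both strands. It occurred in 18 of 85 member genes, which is 21.2%, against 12.0% of 8128 genes measured in EpA cells and 8.09% of all 27025 genes with a window. Of the 9 members called higher that had a window, 4 held it. The matches before the start in these 4 genes, and 1 each in Eif4e, Eef2k and Rrp7a, which were not called, are printed with 20 bases on the 5′ side and the E-box in capitals. Each is read 5′ to 3′ on the gene's own strand.
Eif4a1 at chr11:69672587-69672632, minus strand, 189 bases before the start: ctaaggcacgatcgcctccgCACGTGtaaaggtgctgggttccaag
Eif4g1 at chr16:20672653-20672698, plus strand, 54 bases before the start: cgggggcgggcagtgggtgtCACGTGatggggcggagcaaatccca
Eif5a at chr11:69921435-69921480, minus strand, 74 bases before the start: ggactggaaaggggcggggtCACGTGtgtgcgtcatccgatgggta
Eif5a, other start, at chr11:69920783-69920828, minus strand, 178 bases before the start: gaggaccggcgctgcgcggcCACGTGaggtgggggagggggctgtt
Eef2 at chr10:81176568-81176613, plus strand, 43 bases before the start: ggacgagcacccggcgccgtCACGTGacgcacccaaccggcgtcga
Eif4e at chr3:138527184-138527229, plus strand, 64 bases before the start: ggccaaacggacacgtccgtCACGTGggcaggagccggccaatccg
Eef2k at chr7:120842780-120842825, plus strand, 31 bases before the start: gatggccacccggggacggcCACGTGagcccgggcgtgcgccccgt
Rrp7a at chr15:83122984-83123029, minus strand, 208 bases before the start: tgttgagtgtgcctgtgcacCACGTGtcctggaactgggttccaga
Among the printed genes, the motif was thus present at log2 ratios from 2.20 (Eif4a1) to -0.48 (Eef2k). It was absent from the windows of Eef1a1 and Eef1b2, which were called higher.

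Many mRNAs of the translation machinery open with a C and a run of pyrimidines, the terminal oligopyrimidine motif through which mTORC1 controls their use. A C followed by at least 4 pyrimidines stood at the annotated first base in 4 of the 105 member windows, which is 3.81%. The share was 2.51% of all 32851 windows and 17.9% of the 78 windows of ribosomal protein genes. The 4 members were Eif2s3x, Eif3f, Nol11 and Utp3. Annotated starts can lie some bases from the start a cell uses, and Eef1a1 and Eef2 had no such run at theirs. With the run allowed to begin within 10 bases of the annotated start, it was found in 32.4% of member windows, 30.7% of all windows and 55.1% of ribosomal protein windows. Eef1a1 then had a run of 10 bases, which begins before its annotated start, and Eef2 had none within that limit. The bases printed below for Eef2 end in such a run, which begins beyond the limit. Starts are shown for Eif3f, with a run of 11 bases, and for both main elongation factors. They reach from 10 bases before to 20 bases after the first base on the gene's own strand. Only a run that opens at the annotated first base is in capitals, so the run of Eef1a1 stands in lower case.
Eif3f at chr7:108934405-108934434, plus strand: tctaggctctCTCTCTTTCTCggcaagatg
Eef1a1 at chr9:78481705-78481734, minus strand: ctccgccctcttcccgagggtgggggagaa
Eef2 at chr10:81176621-81176650, plus strand: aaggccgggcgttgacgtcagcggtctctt

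Among the cap-binding and helicase factors, the 2 forms of the helicase eIF4A went in opposite directions. Eif4a1 encodes the form linked to growing cells, and its level was 102 CPM (94.9 to 109) in the uninjured set and 468 CPM (460 to 477) in the injured set. This is a 4.59-fold higher level (4.27 to 4.94), or 2.20 on the log2 scale. Eif4a2 encodes the close paralog that is abundant in differentiated tissue such as brain. It stood at 434 CPM (419 to 449) without injury and at 202 CPM (197 to 208) with it, a log2 ratio of -1.10 (-1.16 to -1.04). With every cell weighted alike the log2 ratio of Eif4a2 was -0.76, short of 2-fold, and that of Eif4a1 was 1.61. In EpA cells of 8000 to 16000 UMIs they were -0.50 and 0.39.

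The split between the paralogs turned over. Of all UMIs of both genes, Eif4a1 held 19.02% (17.8 to 20.3) in uninjured EpA cells and 69.8% (69.1 to 70.5) in injured EpA cells. A share of this kind compares libraries and is not a molar ratio of the 2 proteins. In kept cells outside EpA it was 53.7% (50.1 to 57.3) in the uninjured and 87.0% (86.1 to 87.9) in the injured library.

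The rest of the cap-binding group was mostly higher. Eif4e2, a cap-binding homolog of eIF4E, had 29.1 and 68.7 CPM, a log2 ratio of 1.24 (1.04 to 1.45). Eif4g1, the scaffold that joins eIF4E to eIF4A, had 46.7 and 94.0 CPM, a log2 ratio of 1.01 (0.85 to 1.17). Eif4e itself, the main cap-binding protein, had 72.7 and 118 CPM, below 2-fold with a log2 ratio of 0.70 (0.57 to 0.83). The scaffold paralog Eif4g3 had 83.0 and 82.6 CPM, a log2 ratio of -0.01. Over the 11 genes of the group the median log2 ratio was 0.70, with 9 above 0.

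The repressor Eif4ebp1, which blocks eIF4E until mTORC1 phosphorylates it, had the highest ratio of all members at 50 CPM or more. It was counted 20 times in uninjured EpA cells, which is 2.60 CPM (1.59 to 4.02), and 1357 times in injured ones, which is 53.6 CPM (50.8 to 56.6). This is 20.6-fold (13.3 to 33.9). Equal weighting of cells left its log2 ratio at 3.38 but its level under 50 CPM. A UMI of it was found in 3.60% of uninjured and 37.7% of injured cells. The injured cells held more UMIs at the median, so these shares are not at like depth. In EpA cells of 8000 to 16000 UMIs its log2 ratio was 1.94. Its paralog Eif4ebp2 had a log2 ratio of -0.10 (-0.35 to 0.17), and Eif4enif1, which carries eIF4E into the nucleus, had -0.05. The stress kinases that phosphorylate eIF2 were all under 50 CPM. Eif2ak2, the kinase known as PKR, had a log2 ratio of 0.85 (0.58 to 1.14), and Eif2ak1, the haem-regulated kinase, had 0.34 (0.08 to 0.62). Eif2ak3, the kinase of endoplasmic reticulum stress, had 26 and 104 UMIs and a log2 ratio of 0.26 (-0.35 to 0.96).

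All 13 measured eIF3 subunits had ratios above 0, with log2 ratios from 0.43 to 1.08 and a median of 0.71. Together they summed to 1596 and 2589 CPM, 1.62-fold (1.59 to 1.65). Eif3e had 96.4 and 204 CPM, a log2 ratio of 1.08 (0.97 to 1.20). Eif3l had 51.1 and 102 CPM, a log2 ratio of 1.001 (0.85 to 1.16), just past the 2-fold limit. Eif3h and Eif3b had log2 ratios of 0.93 and 0.91, and Eif3c, a core subunit, had the lowest at 0.43 (0.35 to 0.50). The low-level copy Eif3j2, with 39 and 77 UMIs, fell short of the measured level.

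The factors of scanning and start-codon choice did not share this direction. The summed level of the 18 eIF1, eIF2, eIF2B and eIF5 genes was 3673 and 3568 CPM in the libraries, a ratio of 0.971 (0.959 to 0.985). It was 1.02 with TMM scaling and 1.07 with totals free of ribosomal protein genes, so its side of 1 depends on the scale. Eif1, which guards start-codon choice, contributed 2041 CPM (2009 to 2073) and 1572 CPM (1557 to 1588) to these sums, a log2 ratio of -0.38. Eif5, which prompts eIF2 to hydrolyse its GTP, had 406 and 322 CPM, a log2 ratio of -0.33 (-0.39 to -0.27). Eif1b, the paralog of Eif1, had -0.23 (-0.31 to -0.15). Eif1, Eif5 and Eif1b were chosen for naming after their values were seen.

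Other genes of the same group were higher. Subunits of eIF2, the carrier of the initiator tRNA, had log2 ratios of 0.998 for Eif2s1 (52.7 and 105 CPM), 0.88 for Eif2s3x and 0.69 for Eif2s2. Eif2s1 lay just short of 2-fold and was not called. Eif1ax had 135 and 252 CPM, a log2 ratio of 0.90 (0.80 to 0.99). Over the 18 genes the median log2 ratio was 0.29, with 12 above 0 and none called.

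Elongation factors had the highest ratio of summed levels of the 10 role groups. Their 10 genes summed to 2834 and 7842 CPM, 2.77-fold (2.73 to 2.81). Eef1a1, which delivers aminoacyl-tRNA to the ribosome, went from 1636 CPM (1608 to 1665) to 5055 CPM (5028 to 5083), a log2 ratio of 1.63 (1.60 to 1.65). Eef2, the translocase, had 178 and 622 CPM, a log2 ratio of 1.81 (1.73 to 1.89). Eef1b2, which recharges eEF1A with GTP, had 351 and 1037 CPM, 2.95-fold (2.84 to 3.07).

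The inhibitor of this step was not among the higher genes. Eef2k, the kinase that phosphorylates and stalls eEF2, had 86.7 and 62.0 CPM, a log2 ratio of -0.48 (-0.62 to -0.35). Eef2kmt, a methyltransferase of eEF2, had 55.0 and 52.0 CPM. Eef1e1, a scaffold of the tRNA synthetase complex, had 19.5 and 45.5 CPM, a log2 ratio of 1.22 (0.97 to 1.48) at a level too low to be called. Eef1a2, the form of eEF1A of muscle and neurons, had 4 UMIs in each library, so that no ratio is given.

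Eif5a encodes the factor that frees stalled ribosomes and carries the unusual amino acid hypusine. Its level went from 158 CPM (149 to 167) to 439 CPM (431 to 448), 2.79-fold (2.63 to 2.96). Eif6, which keeps the large subunit apart from the small one until it is mature, had 89.7 and 111 CPM, a log2 ratio of 0.30 (0.18 to 0.43).

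**Figure D2:**
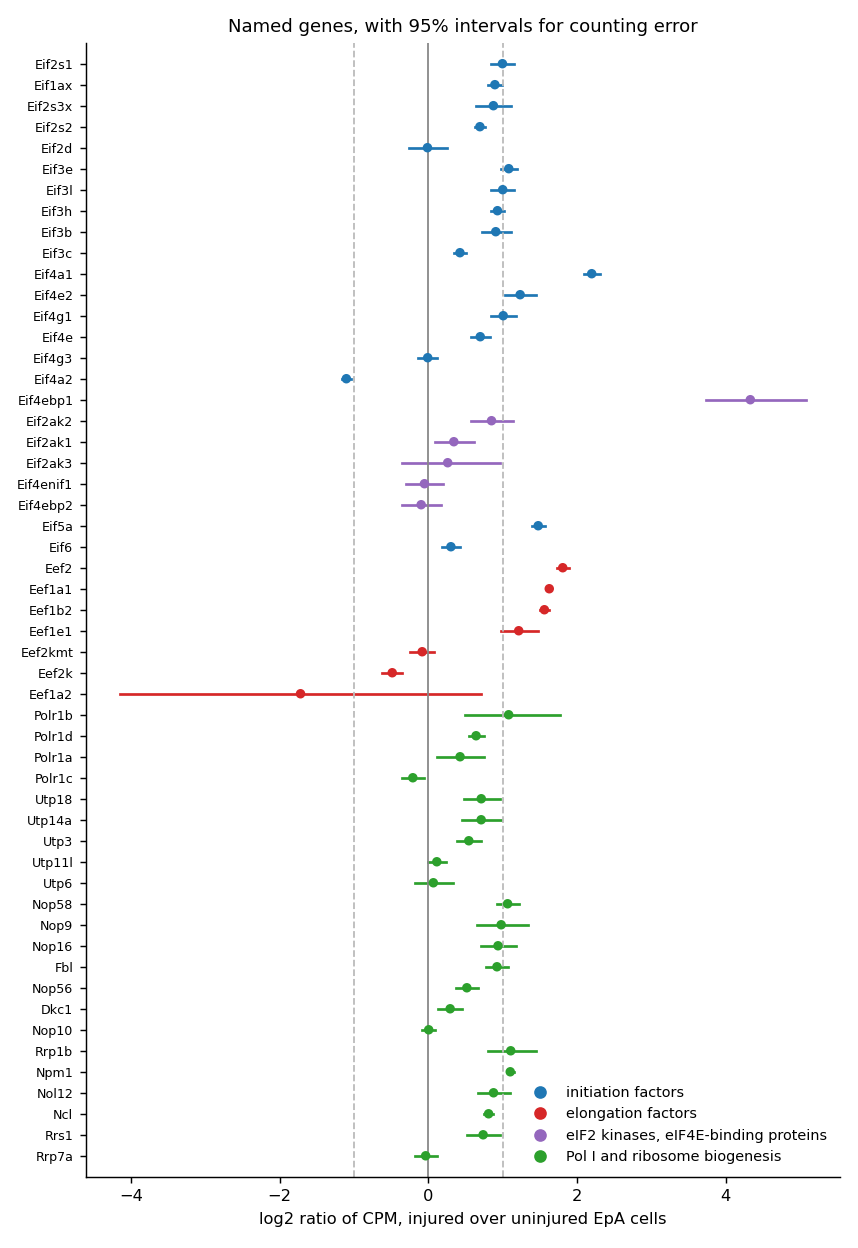
Log2 ratio of CPM, injured over uninjured EpA cells (x axis), for the 53 named genes (y axis), grouped and coloured by role; lines are 95% intervals for counting error, the solid vertical line marks equal levels and the dashed lines a 2-fold ratio. The elongation factors Eef2, Eef1a1 and Eef1b2, Eif4a1, Eif5a and Eif4ebp1 lie beyond the right dashed line, and Eif4a2 beyond the left one. Eef1a2 also lies beyond the left line, but on a few UMIs only.

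The factors of ribosome production made up 44 members, and 2 of the 16 at 50 CPM or more were called higher, a share of 12.5% beside the 10.8% of all genes. Npm1, the nucleolar chaperone nucleophosmin, had 479 CPM (464 to 495) and 1029 CPM (1017 to 1042), a log2 ratio of 1.10 (1.05 to 1.15). Nop58, a core protein of the box C/D particles that guide rRNA methylation, had 54.5 and 114 CPM, a log2 ratio of 1.07 (0.92 to 1.22). Its partner Nop56 had 63.6 and 91.2 CPM, a log2 ratio of 0.52 (0.38 to 0.66), and the methyltransferase Fbl of the same particle had 58.3 and 111 CPM, a log2 ratio of 0.92 (0.78 to 1.07). Ncl, the abundant nucleolar protein nucleolin, had 398 and 699 CPM, a log2 ratio of 0.81 (0.76 to 0.87).

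The 9 Nop, fibrillarin and dyskerin genes all lay at or above 0, with a median of 0.92. The lowest was Nop10 at 0.01 (-0.08 to 0.09), and Nop10 and Dkc1, at 0.29 (0.13 to 0.46), both belong to the H/ACA particles that guide pseudouridine. Of the 20 measured Nol and Rrp genes with Rrs1, Ncl and Npm1, 17 were above 0 with a median of 0.53. Rrs1, needed for assembly of the large subunit, had 26.9 and 45.0 CPM, and Rrp1b had 12.1 and 26.2 CPM. Rrp7a, of the small-subunit processome, had 64.0 and 62.5 CPM.

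The Utp proteins, which bind the emerging rRNA in the small-subunit processome, summed to 244 and 307 CPM, 1.26-fold (1.20 to 1.32). Their log2 ratios ran from -0.52 to 0.96 with a median of 0.25. Polymerase I subunits summed to 216 and 295 CPM, 1.37-fold (1.30 to 1.44). Polr1a, the largest subunit, had 13.5 and 18.3 CPM, and Polr1b had 25 and 177 UMIs, a log2 ratio of 1.08 (0.50 to 1.77). Polr1d had 130 and 203 CPM, a log2 ratio of 0.64 (0.55 to 0.74). Polr1c, which like Polr1d is shared with RNA polymerase III, had 66.3 and 57.5 CPM, a log2 ratio of -0.21 (-0.35 to -0.06).

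Neighbouring genes of the pathway, taken from lists that do not overlap the members, were measured the same way. Of 31 other ribosome biogenesis genes at 50 CPM or more, 6 were called higher, beside 10.8% of all genes, and none lower, and 84 measured genes of the list had a median log2 ratio of 0.46. The 6 were Nsa2, Ddx21, Gnl3, Nhp2, Mrto4 and Mybbp1a. Nsa2, a large-subunit assembly factor, had 124 and 357 CPM, and Gnl3, the GTPase nucleostemin known from stem and progenitor cells, had 29.5 and 71.7 CPM. Of 3 exosome genes at 50 CPM or more, Exosc8 was called higher with 25.4 and 55.9 CPM.

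Genes of mTORC1 and translation control had a median log2 ratio of 0.15 over 25 measured, and 1 of 9 at 50 CPM or more was called higher, a share close to the 10.8% of all genes. That gene was Pabpc1, the poly(A)-binding protein that partners eIF4G, with 113 and 378 CPM. Mtor had 13.1 and 13.0 CPM, and Pdcd4, an inhibitor of eIF4A, had 312 and 263 CPM, a log2 ratio of -0.25. With every cell weighted alike the log2 ratio of Pdcd4 was 0.09, so its direction depends on the scale. In the Myc family list, of transcription factors that act through the E-box, none of 2 genes at 50 CPM or more was called, and the median log2 ratio of 7 measured genes was 0.04. Myc itself had 8 UMIs in uninjured and 685 UMIs in injured EpA cells, 1.04 and 27.1 CPM. The repressors Mxd4 and Mxi1 had log2 ratios of -0.72 and -0.39, and 0.15 and 0.48 per cell without scaling. Mxd1 and Mnt of the same list had -0.99 and 0.04, both under 50 CPM.

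The difference was spread unevenly over the injured EpA cells. The members' share was counted per cell after drawing 2000 UMIs from each, with 8 uninjured and 12 injured cells too shallow for it. The median was 1.20% in 547 uninjured and 1.75% in 992 injured cells, and 1.21% and 1.77% unthinned. The 95th percentile of the uninjured cells was 1.65%, and 527 of the 992 injured cells, or 53.1% (49.96 to 56.3), lay above it.

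Injured cells were then split by 45 genes of the motile cilium, the hallmark organelle of ependymal cells, none of them a member. The split value was 1.065% of a cell's thinned UMIs, the 5th percentile of uninjured EpA cells, and 57 uninjured and 87 injured cells lay within 0.2 percentage points of it. The classes are therefore ranges of a score and not cell types. Above it lay 441 injured cells, and below it 551. Of 42 cilium genes at 50 CPM or more, 41 were called lower in injured EpA cells. Cells with UMIs of at least 2 of 10 core genes of G2 and mitosis were taken as dividing, 1 uninjured and 113 injured cells, and 442 cells were below the cilium range and not dividing.

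Injured cells within the cilium range were close to uninjured cells. Their summed level was 13392 CPM, against 12304 CPM in the 519 uninjured cells in the range, a ratio of 1.09 (1.08 to 1.10) with a median log2 ratio of 0.08. None of 52 members at 50 CPM or more was called in either direction, and of all genes 0.907% were called higher and 0.117% lower. Below the range and not dividing, the summed level was 22623 CPM, 1.84-fold (1.82 to 1.85). Of 59 members, 21 were called higher and 1 lower, where 12.9% of all genes were higher and 18.5% lower. Dividing cells had 23078 CPM, 1.88-fold (1.86 to 1.89). Of 61 members, 25 were called higher and 1 lower, where 21.7% of all genes were higher and 24.3% lower. Both sets, dividing or not by this rule, differed from uninjured cells by a like amount.

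**Figure D3:**
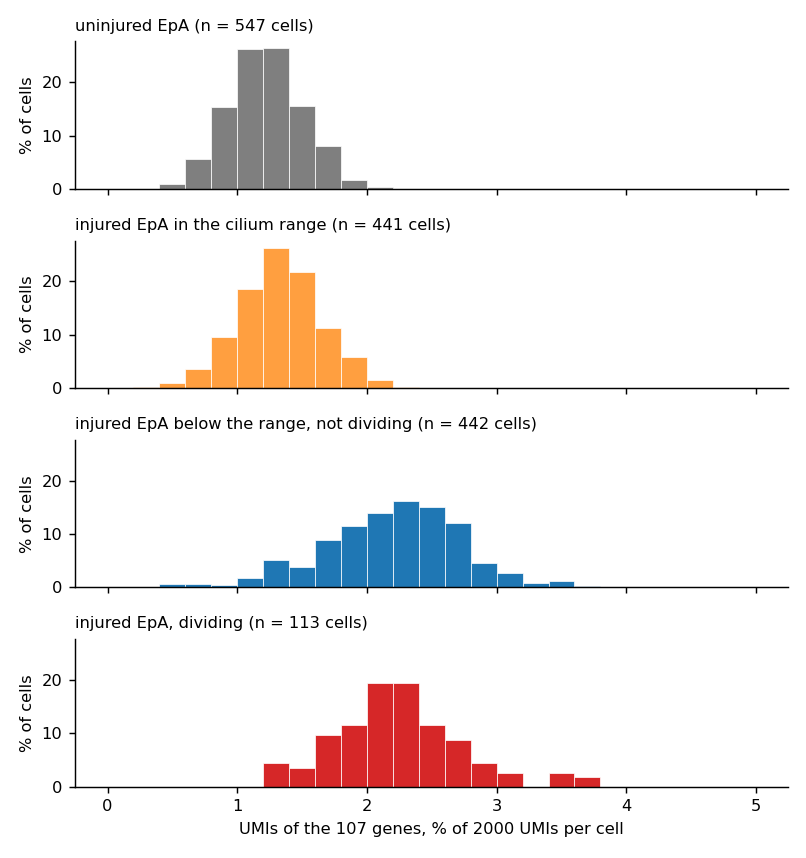
Percent of cells (y axis) by the members' share of 2000 thinned UMIs per cell (x axis, in bins of 0.2 percentage points), for uninjured EpA cells and 3 sets of injured EpA cells. Injured cells in the cilium range overlap the uninjured cells, with medians of 1.30% and 1.20%, and both sets outside it centre on 2.20%.

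Per cell the contrast was of the same kind. Of injured cells in the cilium range, 55 of 441 lay above the uninjured 95th percentile, or 12.5% (9.54 to 15.9). Of those below the range and not dividing, 371 of 442 did, or 83.9% (80.2 to 87.2), and of dividing cells 101 of 113, or 89.4% (82.2 to 94.4).

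The order of these sets differed between genes. Eif4a1 had 100 CPM in uninjured cells of the range, 111 CPM in injured cells of the range, 523 CPM below it without division and 723 CPM in dividing cells. Eif5a, Ncl and Npm1 were ordered in the same way, and Nop58 stood at 53.7, 50.6, 109 and 191 CPM. Eef1a1 was highest below the range without division, at 1641, 2184, 6394 and 5238 CPM, and so were Eef2, at 176, 280, 794 and 617 CPM, and Eif3e.

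A stepwise lower level was seen for the helicase paralog. Eif4a2 had 437 CPM in uninjured cells of the range and 306, 197 and 107 CPM in the injured sets in the same order, so that it was already lower in cells that kept the cilium transcripts. Eif4a1 made up 18.7%, 26.6%, 72.7% and 87.1% of the UMIs of both helicase genes in these 4 sets. At 8000 to 16000 UMIs it made up 24.9% in injured cells of the range and 48.7% (44.1 to 53.3) in those below it. Eif1 had 2051, 1858, 1428 and 1576 CPM across them, and Eif4ebp1 had 2.18, 5.62 and 57.4 CPM in the first 3 and 94.999 CPM in dividing cells.

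**Figure D4:**
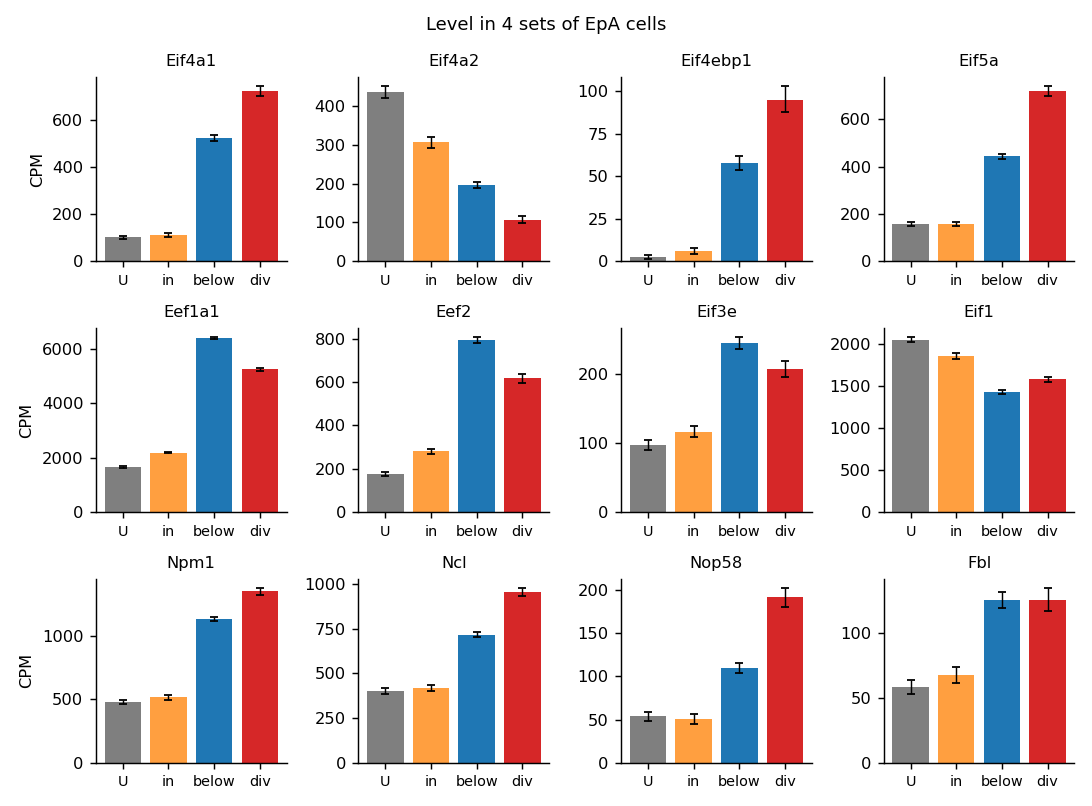
Level in CPM (y axis) of 12 members in uninjured EpA cells of the cilium range (U) and in injured EpA cells in the range (in), below it and not dividing (below) and dividing (div); bars are summed levels and error bars 95% counting intervals. The first 2 bars are close for most genes, Eif4a2 steps down across all 4 sets, and Eef1a1, Eef2 and Eif3e are highest in cells below the range that do not divide.

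Depth moved with these sets. The median cell held 11632 UMIs in the injured cells of the range, 25680 in those below it and not dividing, and 52433 in dividing cells. In uninjured cells the summed level was 10972 CPM (10655 to 11297) at 2000 to 8000 UMIs, 12349 CPM (12236 to 12463) at 8000 to 16000 and 12310 CPM (12183 to 12438) at 16000 to 32000. It was thus higher in the second bin than in the first beyond counting error, and the second and the third bin overlapped. In injured cells it was 12238, 14325 and 19611 CPM in the same bins. Of their 81, 305 and 356 cells, 14, 70 and 236 lay below the cilium range. From 32000 UMIs up, 250 injured cells had 22890 CPM, 231 of them below the range and 93 dividing. Only 17 uninjured cells were as deep and no level was taken for them, so these injured cells had no uninjured level at like depth.

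Cells of 8000 to 16000 UMIs gave a comparison at like depth. All EpA cells of that depth, 336 uninjured and 305 injured, had a ratio of 1.16 (1.15 to 1.17). None of 53 members was called, and of all genes 1.59% were higher and 0.502% lower. The 70 injured cells of that depth below the cilium range had 18092 CPM against 12371 CPM in the uninjured cells of the range, 1.46-fold (1.44 to 1.49). Of 54 members, 8 were called higher, which is 14.8%, beside 7.29% of all genes. Their median depth of 13616.5 UMIs still exceeded the 10857 UMIs of the uninjured cells. The 235 injured cells in the range had 1.05-fold (1.04 to 1.07). Among these 70 cells Eef2 had a log2 ratio of 1.84, Eef1a1 1.59, Eef1b2 1.29 and Eif4a1 1.21, while Eif5a had 0.64 and Nop58 0.18.

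Clusters of all kept cells showed the same division. Clusters 1 and 2 held EpA cells of both libraries, and their summed levels were 12615 and 12150 CPM in uninjured and 13193 and 12603 CPM in injured cells. Clusters 8, 10 and 11 held 118, 290 and 223 injured EpA cells and 1, 1 and 0 uninjured ones, so that cluster and library cannot be told apart there. Their summed levels were 23604, 18678 and 23609 CPM. Fixed ependymal markers above 100 CPM numbered 7 of 7 in cluster 10, 2 in cluster 11 and 0 in cluster 8. Of the 113 dividing injured EpA cells, 102 lay in cluster 8. Of its 10 leading genes by fold, 7 were neutrophil genes (Mpo, Ngp, Ctsg, Camp, S100a9, Elane and S100a8) and 3 were mitotic. The 118 injured EpA cells of the cluster held 2 UMIs of these 7 genes in all, and 4 uninjured cells of the cluster outside EpA held 21051. Without cluster 8 the injured EpA cells had a summed ratio of 1.57 (1.56 to 1.58), and 7 of 55 members were called higher, beside 7.38% of all genes.

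**Figure D5:**
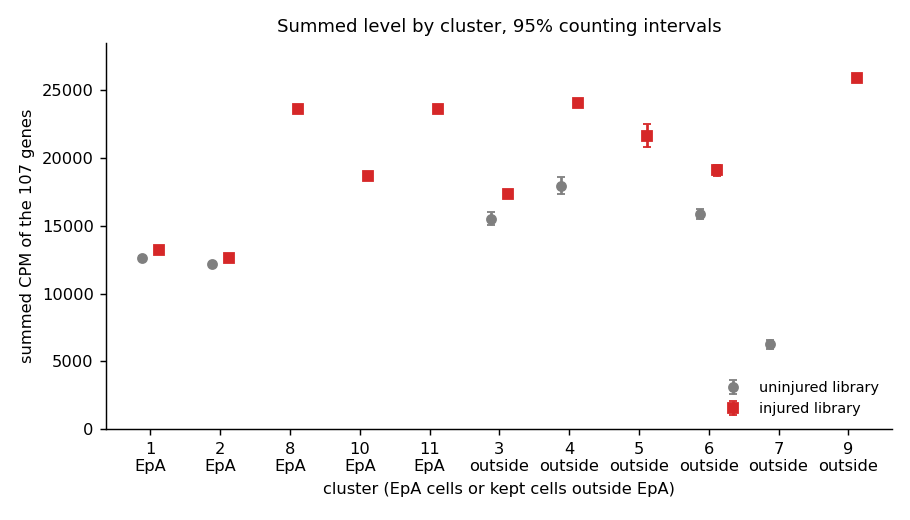
Summed level of the 107 genes in CPM (y axis) by cluster (x axis), for clusters of EpA cells and of kept cells outside EpA with at least 20 cells of a library; circles are the uninjured and squares the injured library, with 95% counting intervals. EpA clusters 1 and 2 have like levels in both libraries, clusters 8, 10 and 11 appear for the injured library alone, and outside clusters 3, 4 and 6 differ by less than the EpA sum.

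Kept cells outside EpA, 156 uninjured and 224 injured, gave a second pair of values from the same libraries. Their summed level was 14366 and 23842 CPM, again 1.66-fold (1.63 to 1.69). Of 57 members at 50 CPM or more, 15 were higher, where 12.2% of 3762 genes were, and 1 was lower, where 18.4% were. The median log2 ratio was 0.56 against -0.24 over all genes. The kinds of cell differed between these sets: cluster 9, with all 8 endothelial markers above 100 CPM, held 5 uninjured and 81 injured cells. Condition and cell mix therefore cannot be told apart in these sums.

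Within single outside clusters the ratio of summed levels was smaller. Microglia-like cells of cluster 3 had a ratio of 1.12 (1.08 to 1.16), and cluster 6 had 1.20 (1.17 to 1.24). Fibroblast-like cells of cluster 4 had 1.34 (1.29 to 1.39), with a median depth of 1131.5 and 18693 UMIs in the libraries. The members' median log2 ratio was 0.24, 0.29 and 0.076 in clusters 3, 4 and 6. Over all genes it was -0.36, -0.36 and 0.076, so members stood above all genes in clusters 3 and 4 and level with them in cluster 6. Without cluster 9 the outside cells had 1.46 (1.43 to 1.48), and 8 of 54 members were called higher, which is 14.8%, near the 10.8% of all genes.

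The calls of EpA and outside cells overlapped in 7 genes, which is 58.3% of the 12 and 46.7% of the 15. Over all genes 176 calls were shared, 43.8% of the 402 in EpA cells and 38.4% of the 458 outside. These were Eif4a1, Eif4e2, Eif4ebp1, Eif5a, Eef1b2, Nop58 and Npm1, and Eif4a2 was lower in both, with 275 and 105 CPM outside EpA. The main elongation factors stood further apart. Eef1a1 had 3359 and 5436 CPM outside EpA, a log2 ratio of 0.69, and Eef2 had 488 and 779 CPM, a log2 ratio of 0.67. Their levels in uninjured EpA cells were below those of the uninjured outside cells, and in injured EpA cells they were near the injured outside level. Differences between the EpA and outside ratios were not tested.

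Reads of close copies limit some of these values. Several members have processed pseudogenes or near-identical paralogs, among them Eef1a1, Npm1, Eif4a1 and Eif3j1, and how shared reads were assigned is not given in the sources used here. Transcript levels do not measure protein synthesis.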

How the data were processed

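The deposited values are raw counts of UMIs per gene and cell, left unnormalised by the authors. The submitters' processing notes name the tools Cell Ranger 3.0.1 and Seurat and the genome build mm10, and the annotation behind the counts is not stated there. The authors' list of EpA cells and of kept cells was used, and 18 barcodes found in both libraries were kept apart. No column of per-sample values was left unused (0). The table of all kept cells lacks some members and served only for its list of cells.

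Counts were summed over the cells of a set and scaled to CPM. A log2 ratio used 0.5 added counts. Intervals are exact at 95%: Poisson for levels, conditional binomial for ratios and Clopper-Pearson for shares. They cover counting error only, and cells are not replicates. Where several fixed values were needed, 5 CPM (mean) made a gene measured and 50 CPM with a 2-fold ratio made a call. Depth was 7689179 and 25296289 UMIs in EpA cells, so that 50 CPM is far above a single count.

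The members, gene lists, thresholds and tests were chosen with earlier results of these data known. Named genes were every called member, up to 4 with the largest and 1 with the smallest absolute ratio of each role at 20 CPM or more, and a fixed set of core genes. Genes named beyond this rule were chosen after their values were seen.

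Kept cells were clustered jointly with scanpy 1.11.5, and a cluster took a cell type name only from fixed markers. Scrublet called 4 EpA cells doublets in all (1 and 3), too few to show that doublets were absent, and they were removed only in an alternative. Alternatives covered scaling (TMM of edgeR 4.0.16, totals without mitochondrially encoded or ribosomal protein genes, UMIs per cell, equal weight per cell, thinning), cells left out, thresholds and, added after seeing the data, cells of like depth, EpA clusters and cells without cluster 8. The calculation was checked on simulated data. Promoter windows are from RefSeq, and 101 of 105 member windows open or overlap a GENCODE transcript start of the gene. This check does not require the first base to be the same.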

Additional observations from a re-analysis of the deposited data

Results flagged for a closer look

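In 2 results the EpA cells and the kept cells outside EpA went opposite ways on the CPM scale, with both counting intervals clear of equality. The differences were not tested. For the summed level of the eIF1, eIF2, eIF2B and eIF5 genes, the ratio was 0.971 in EpA cells and 1.39 outside them. The cell mix outside EpA also differed between the libraries. The EpA ratio was 1.02 with TMM scaling and 1.07 with totals free of ribosomal protein genes, so its side of 1 depends on the scale. Of the 18 genes, 12 had a log2 ratio above 0 in EpA cells. Polr1c, the subunit shared by RNA polymerases I and III, had 0.867 in EpA cells and 1.53 outside them.

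Barcodes that the authors did not keep, 165 uninjured and 338 injured, also carried the members. Their summed level was 11282 and 19745 CPM, 1.75-fold (1.70 to 1.80).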

How the results depend on the processing

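With 1 library per condition no alternative leaves out a replicate. No paired analysis was possible because each group holds 1 library and no result comes from a test. Of 636 values of the 53 named genes under 12 alternatives, none of a called gene changed sign, 383 stayed inside the counting interval and 253 left it. Sign changes of named genes that were not called were not counted, and they occurred. In cells of 8000 to 16000 UMIs, Eif2s1 had -0.15, Nop56 -0.30, Utp18 -0.34, Rrs1 -0.30, Polr1a -0.20 and Eif6 -0.13, each above 0 in the main values. Eif4g3 had 0.36 there, against -0.01, and Eef2k had 0.38 per cell without scaling, against -0.48.

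The median log2 ratio of 0.62 in EpA cells became 0.76 with totals free of ribosomal protein genes, 1.48 per cell without scaling, 0.35 when each cell had equal weight, 0.51 after thinning, 0.44 without dividing cells, 0.14 in cells of 8000 to 16000 UMIs and 0.43 without cluster 8. The 12 members called higher became 25, 53, 4 and 7 in the first 4 of these, 0 at like depth, 7 without cluster 8, 32 at 1.5-fold and 4 at 3-fold. Of all genes, 13.8%, 45.3%, 5.96% and 6.57% were called higher in the first 4, 1.59% at like depth, 7.38% without cluster 8, 21.1% at 1.5-fold and 5.02% at 3-fold. The members' 4 of 54 with equal weight and 4 of 57 at 3-fold are near these shares. The 1 member called lower became 0 in all 7 and at 3-fold. The summed ratio of 1.66 became 1.83, 3.02, 1.45, 1.503, 1.59, 1.16 and 1.57 in the same 7, and 1.74 with TMM and 1.57 without mitochondrially encoded genes.

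Outside EpA the median of 0.56 became 0.87 with TMM, 2.49 per cell, 0.27 with equal weights and 0.46 thinned. It was 0.24, 0.29 and 0.076 within clusters 3, 4 and 6, where the medians of all genes were -0.36, -0.36 and 0.076. The causes were not tested. Equal weighting kept Eef1a1, Eef1b2, Eef2 and Eif4a1 of the 12.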
